A study of Rattus norvegicus with 3 samples.

Results

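Genes that mark stages of B cell development, Igll1, Cd79a, Cd79b, Ms4a1, Pax5 and Ebf1, were described across the cell labels of rat thymus. These 6 of 34034 measured features were chosen by name, with their levels in these data known, so their levels are given as a description and without a test. Thymi were taken from Lewis rats at 8 weeks of age, and the labels name no treatment or genetic change for this inbred strain. For the stromal droplet library, tissue was treated with Liberase TH plus DNase I, and cells without CD45, a surface protein of blood-derived cells, were enriched with a magnetic separator and a flow sorter. For the other library, thymocytes, the developing T cells that make up most of the organ, were freed with collagenase D plus DNase I, with no sort stated. Each group had 1 sample, and the labels do not say how many animals went into it. No test across replicates could be made. The 95% intervals printed cover counting error alone.

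B cells arise mainly in bone marrow, and the thymus holds a small resident population, part of which is known to develop there. The transcription factors EBF1 and PAX5 start and hold the B cell programme. Igll1 encodes the lambda5 chain, which pairs with VpreB proteins as the surrogate light chain of the pre-B cell receptor. The gene is turned off before the mature stage. Cd79a and Cd79b encode the signalling pair of the B cell receptor and are kept from the early precursor to the mature cell. Ms4a1 encodes CD20, which appears late in that path and stays on mature B cells.

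The stromal library held 13226 annotated cells with 131624350 unique molecular identifiers (UMIs, each 1 captured RNA molecule) and a median of 9087.5 per cell. The thymocyte library held 8546 annotated cells with 64440495 UMIs and a median of 3994. The libraries shared 28 cell barcodes, none of them in the stromal B cell label and 1 in the B+myeloid label. Levels are UMIs per 1000000 UMIs of a label (CPM), and labels are those of the authors. The authors called 179 stromal cells B cell and 170 cells of the thymocyte library B+myeloid. In 1 label or another, fewer cells with a transcript and less transcript per cell both lower a CPM, so the share of cells with a UMI is given beside it.

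Promoter sequence is shown for Igll1 and Cd79a, the members that separate the sets of cells described here, since nearly all Igll1 UMIs of annotated cells lay in the stromal B cell label and Cd79a was also found in T cells. Promoters come from RefSeq on GRCr8, from 250 bases before the start site to 50 after it, and 3 of the 6 members had one, the other being Ebf1. The Igll1 promoter lies at chr11:97642937-97643236 and the Cd79a promoter at chr1:89621210-89621509, both on the plus strand. Capitals mark matches, on either strand, to the motifs GAGGAA and CAGGTG.
Igll1: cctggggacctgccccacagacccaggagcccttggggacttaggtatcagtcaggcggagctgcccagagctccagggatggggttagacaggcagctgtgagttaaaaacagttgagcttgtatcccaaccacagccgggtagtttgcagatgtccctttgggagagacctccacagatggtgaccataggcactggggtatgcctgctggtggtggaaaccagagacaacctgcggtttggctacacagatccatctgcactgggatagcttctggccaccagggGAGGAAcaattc
Cd79a: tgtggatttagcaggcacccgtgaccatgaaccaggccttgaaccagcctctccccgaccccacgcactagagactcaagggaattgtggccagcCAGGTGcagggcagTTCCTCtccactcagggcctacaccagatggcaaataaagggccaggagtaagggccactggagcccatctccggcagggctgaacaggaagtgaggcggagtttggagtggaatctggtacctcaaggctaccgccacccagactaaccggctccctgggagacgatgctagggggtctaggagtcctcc
The Igll1 window held GAGGAA at position 39 after the start site. The Cd79a window held CAGGTG at position -155 and the reverse complement of GAGGAA at position -141. Of 27457 RefSeq promoters of this length, 27.5% held GAGGAA and 18.7% held CAGGTG. The palindromic EBF motif, found in 0.841% of promoters, and the octamer ATTTGCAT, found in 1.64%, had no match in the windows of Igll1, Cd79a or Ebf1. Ebf1 had no match to any of the 4 motifs. These are matches of letters, not measured binding.

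In the stromal library, Igll1 was nearly all in the B cell label. The label held 1076 Igll1 UMIs in 68 of 179 cells (38.0%, interval 30.9 to 45.5%), a level of 376.7 CPM. The other 13047 stromal cells held 22 Igll1 UMIs in 17 cells (0.130%), a level of 0.171 CPM and 2205-fold lower. Median depth was 14761 UMIs per cell in the label and 9056 in the other cells. The share depended on a filter for thymocyte RNA: among label cells with fewer than 3 UMIs of 8 thymocyte genes, 10.2% had Igll1, and with Cd3g taken off that list, 32.9%. Cd3g had a UMI in 66 of the 68 Igll1 cells.

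The receptor genes and Pax5 had the same leading label. Cd79a had 614.8 CPM and a UMI in 101 cells (56.4%) of the B cell label, against 0.738 CPM in the other stromal cells. Cd79b had 180.3 CPM and 98 cells (54.7%), against 0.551 CPM. Pax5 had 253.5 CPM and 95 cells (53.1%), against 0.660 CPM. By a rule of 3-fold above the next label on at least 20 UMIs, the B cell label led for Igll1, Cd79a, Cd79b and Pax5, 4 of the 5 members it could be applied to. The same rule called 1.01% of 10745 genes, but the members were chosen for this pattern and the share is given only as background.

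Ms4a1 was close to absent there. The B cell label held 9 Ms4a1 UMIs in 4 of 179 cells (2.23%, interval 0.612 to 5.62%), or 3.15 CPM. A single cell of the label Thymocyte held 7 more, and that label reached 4.08 CPM. The intervals of the 2 labels overlapped.

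Ebf1 did not mark B cells in this library. It was highest in the B cell label at 3343 CPM, with a UMI in 153 cells (85.5%), but capsular fibroblasts followed at 2310 CPM with a UMI in 99.9% of 1358 cells. Vascular smooth muscle cells and pericytes had 2057 CPM, arterial endothelium 1716 CPM and venous endothelium 1335 CPM. The mesenchymal labels TMC3, TMC4, TMC1 and TMC2 had 1188, 1086, 948.2 and 849.4 CPM. Cortical epithelium stood at 242.4 CPM and myeloid cells at 137.3 CPM, and the lowest label of 20 or more cells, muscle-like epithelium, at 78.7 CPM. Ebf1 had a UMI in all 24 labels of that size. Of the UMIs of annotated stromal cells, the B cell label held 7.10% for Ebf1 and 98.0% for Igll1. With the barcodes that carry no label counted too, these were 6.82% and 92.8%. Neighbouring labels in the order of Ebf1 had overlapping intervals in 11 of 23 pairs, so that order is resolved beyond counting error in part only, and not by replicates. For Igll1, Cd79a and Pax5, 22 of 23 neighbouring pairs overlapped, the exception being the step down from the B cell label.

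**Figure D1:**
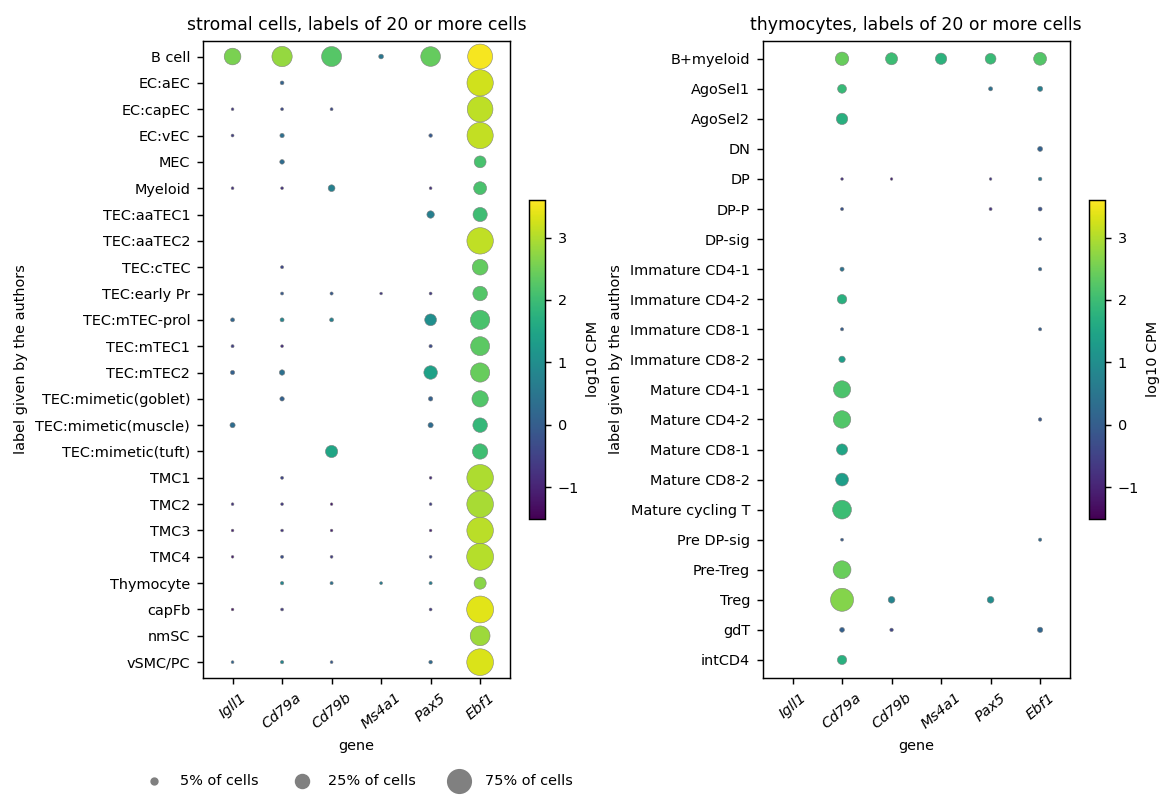
Level and share of cells with a UMI for the 6 genes (x axis) in each label of 20 or more cells (y axis), in the stromal library (left) and the thymocyte library (right). Colour is log10 CPM, dot area follows the share of cells, and no dot means 0 UMIs. Igll1 is large in 1 stromal label at 376.7 CPM, Ebf1 is present in all 24 stromal labels, and Cd79a is spread over the mature T cell labels of the thymocyte library.

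In the thymocyte library the precursor gene was missing and the mature gene present. No Igll1 UMI was found in its 8546 annotated cells, where 3 UMIs would be 0.0466 CPM. Ms4a1 had 143 UMIs in 29 of the 170 B+myeloid cells (17.1%, interval 11.7 to 23.6%), or 59.8 CPM. The other 8376 cells held no Ms4a1 UMI, so the label was at least 1237-fold higher, taking 3 UMIs over all of those cells as the limit. Cd79b had 97.1 CPM in the label and 0.0806 CPM outside it, Pax5 89.1 and 0.177 CPM, and Ebf1 169.4 and 1.51 CPM. The label led by the 3-fold rule for Cd79b, Ms4a1, Pax5 and Ebf1, 4 of 5 members, where the same rule called 10.9% of 9693 genes. Cd79a was the fifth, and it is taken up with the T cells further on. Ebf1, spread over most stromal labels, was thus among the genes that set the B+myeloid label apart from thymocytes. Part of the Ebf1 UMIs of the label lay outside its B-lineage cells, as given below.

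Within the B cell label the members fell into a few combinations. A UMI of Igll1, Cd79a, Cd79b, Pax5 and Ebf1, without Ms4a1, was found in 61 cells. In 52 cells Ebf1 was the only member, 22 cells had Cd79a, Cd79b, Pax5 and Ebf1, and 22 cells had none of the 6. The remaining 22 cells were spread over 11 other combinations. The cells with Ebf1 alone were deep, with a median of 17478.5 UMIs, and those with none had 16946.5. They were no shallower than the cells with 5 members, at 16388.

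The label was therefore divided by a rule added after seeing the data. Cells with a UMI of at least 2 of Cd79a, Cd79b, Ms4a1 and Pax5 are called B-lineage cells here. Neither Igll1 nor Ebf1 enters that rule. It took 101 of 179 cells (56.4%, interval 48.8 to 63.8%), all 68 Igll1 cells among them. The other 78 cells of the label held no Igll1 UMI. They held 1 UMI of Cd79a, 1 of Cd79b, 13 of Pax5 and none of Ms4a1, while 6 mesenchymal genes (Pdgfra, Col1a1, Col1a2, Dcn, Lum and Pdgfrb) summed to 10410 CPM and 12 proliferation genes to 6976 CPM. At least 3 mesenchymal UMIs were found in 57 of the 78. The data thus go against the label B cell for these 78 cells, and the label as a whole is not treated as B cells below.

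The B+myeloid label was mixed in its name and in its cells. The same rule took 34 of 170 cells (interval 14.3 to 26.8%), all in 1 of the authors' 2 clusters that make up the label. The other 136 held 21322 CPM of 10 myeloid genes. Siglech, a gene of plasmacytoid dendritic cells, had 324.1 CPM in these 136 cells and 0 UMIs in the 34. Of the 405 Ebf1 UMIs of the label, 255 lay in the 34 cells. At least 3 mesenchymal UMIs were found in 4 of the 136 and in 0 of the 34. With those 4 cells left out, Ebf1 in the label stood at 127.2 CPM in place of 169.4.

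**Figure D2:**
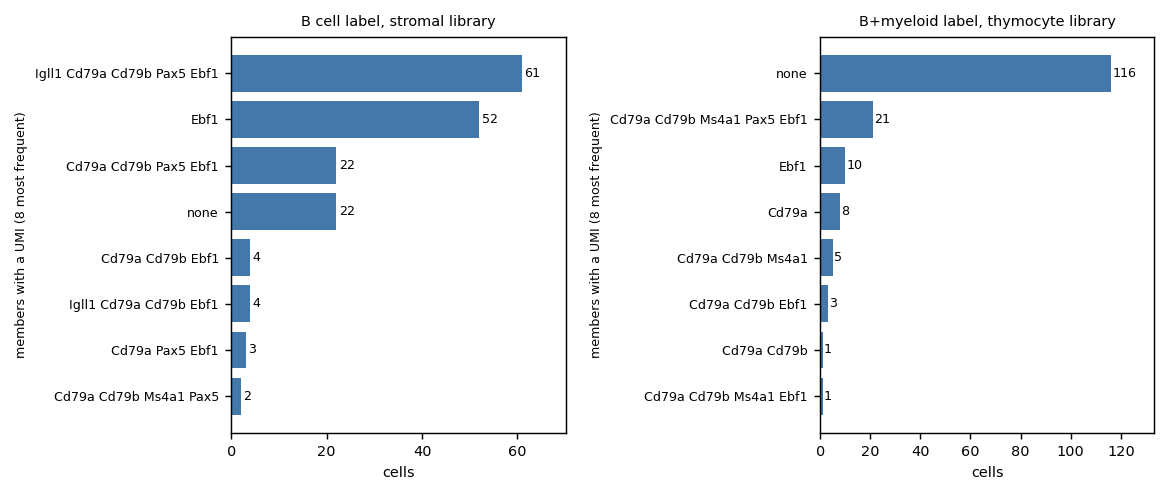
Cells (x axis) by the combination of members with a UMI (y axis, the 8 most frequent), in the stromal B cell label of 179 cells (left) and the B+myeloid label of 170 cells (right). The left panel is led by 61 cells with 5 members and no Ms4a1, the right by 116 cells with no member, then 21 cells with Cd79a, Cd79b, Ms4a1, Pax5 and Ebf1.

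Igll1 and Ms4a1 were seldom found in the same cell. Among the 101 stromal B-lineage cells, 66 had Igll1 without Ms4a1, 2 had Ms4a1 without Igll1, 2 had both and 31 had neither. Ms4a1 was found in 2.94% of the cells with Igll1 (interval 0.358 to 10.2%) and in 6.06% of those without (0.743 to 20.2%). The intervals overlap, so an exclusion of the 2 genes within this library cannot be read from 4 Ms4a1 cells. In the thymocyte library 29 of 34 B-lineage cells had Ms4a1 (85.3%, interval 68.9 to 95.05%) and 0 of 34 had an Igll1 UMI, where 3 cells would be 8.82% and the exact interval reaches 10.3%.

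The 4 stromal cells with Ms4a1 were unlike each other. The first held 1 Ms4a1 UMI with 12 of Igll1 and none of Cd74, the class II invariant chain. The fourth held 2 Ms4a1 UMIs with 3 of Igll1 and again no Cd74. The others held 2 and 4 Ms4a1 UMIs, no Igll1, and 53 and 231 UMIs of Cd74. Each of the 4 also held between 3 and 9 UMIs of 8 thymocyte genes. Set against the 66 cells with Igll1 alone, the 2 cells with Ms4a1 alone are too few to read. The members called were 2 of 5 higher where all genes gave 2.33%, and 1 of 5 lower where all genes gave 74.7%. Of the 2 higher, Igll1 defined the split, so its call was fixed in advance. The other, Ebf1, was computed on a floor of 3 UMIs for the 2 cells.

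The other members went along with Igll1 in nearly every cell that had it. Of the 68 Igll1 cells, 68 had Cd79a, 67 had Cd79b, 64 had Pax5 and 68 had Ebf1. Igll1 was strong where present: 37 cells had 10 or more UMIs, 22 had 3 to 9 and 9 had 1 or 2, with a median of 12 and a highest value of 82. Of the 101 B-lineage cells, 33 had no Igll1 UMI. Those 33 were shallower, with a median of 5558 UMIs against 16073.5. Thinned to 5558 UMIs, 60 of 64 deep enough Igll1 cells (93.8%, interval 84.8 to 98.3%) kept a UMI of Igll1. Of the 33 cells without, 16 were shallower than that, down to 1513 UMIs. Thinned to 1000 UMIs, 33 of 68 Igll1 cells kept one. How many of the 33 lacked Igll1 for want of depth was not tested.

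The 33 cells without Igll1 were compared with the 68 that had it, to see which other stage genes went with it. A gene was called at a 2-fold difference of summed CPM on at least 20 UMIs. Of 7982 genes, 671 were higher in the Igll1 cells (8.41%) and 799 were lower (10.0%). Igll1 itself defined the sets. Of the other members, Cd79b was lower in the Igll1 cells, at 272.4 CPM (interval 244.3 to 302.8) against 726.6 (621.8 to 844.1). Cd79a had 1097 against 1589 CPM, Pax5 455.1 against 586.4 and Ebf1 5341 against 6897, each under 2-fold. Cd79a, Cd79b and Pax5 are in the rule that chose the cells, and the 33 cells were shallower. The levels of Cd79a, Cd79b and Pax5 thus describe the choice too, and how far it set them was not tested.

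Genes of the surrogate light chain and the early precursor were split. Of 16 other precursor genes tested, 4 were higher in the Igll1 cells and 3 lower, with a median log2 ratio of -0.28 against 0.02 over all genes tested. Vpreb1a, the VpreB partner of Igll1, had 87 UMIs in 38 of 68 cells against 1 UMI in 33 cells. Vpreb1b, looked at after its value was seen, had 96 UMIs against none. Dntt, which adds bases at receptor joints, had 51 UMIs in 8 cells against none. Il7r, the receptor of the precursor growth factor IL-7, had 172.3 against 55.2 CPM, and the transcription factor gene Lef1 had 679.8 against 191.2 CPM.

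The recombinase genes ran the other way. Rag1 had 21.4 CPM in the Igll1 cells (27 UMIs in 9 of 68 cells) and 161.5 CPM in the cells without (38 UMIs in 15 of 33). Rag2 had 16.7 against 59.5 CPM, in 14 of 68 and 13 of 33 cells. Bach2, a repressor gene active before plasma cell differentiation, had 1220 against 2647 CPM. RAG1 and RAG2 cut the receptor genes during rearrangement, and thymocytes also make them. The thymocyte list had at least 3 UMIs in 58 of 68 Igll1 cells and 10 of 33 of the others, and summed to 412.2 and 263.5 CPM. Most of this was Cd3g, with 290.7 and 191.2 CPM. With Cd3g taken off the list, 79 of the 101 B-lineage cells held fewer than 3 UMIs of it. Thinned to 1000 UMIs per cell, a UMI of the list was left in 32.4% and 27.3% of cells. Of 4 genes of the list tested, Cd3d was 2.71-fold and Cd3e 2.93-fold higher in the Igll1 cells, and none was lower. Cd3e was computed on the floor of 3 UMIs for the 33 cells. The list genes Cd8a, Cd8b and Lat were at 0 in the 33 cells. The part of thymocyte RNA in these values, and in those of Dntt, Il7r and Lef1, was not tested.

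Summed levels of antigen presentation and mature B cell genes were lower in the Igll1 cells. Of 9 mature B genes tested none was higher and 6 were lower, with a median log2 ratio of -2.21. All 5 class II genes tested were lower. Cd74 had 83.4 CPM in the Igll1 cells and 1700 in the others, RT1-Da 47.7 and 603.4, and RT1-Db1 50.8 and 752.1. Few cells carried this: 284 of the 400 Cd74 UMIs of the 33 cells lay in the 2 cells with Ms4a1. With all 4 Ms4a1 cells left out, Cd74 was 6.14-fold lower in the Igll1 cells in place of 20.4-fold, and RT1-Da 5.84-fold in place of 12.7-fold. Among the 33 cells, 2 further cells without Ms4a1 held 164 and 155 class II UMIs. In single cells, class II genes summed to more than 1000 CPM in 2 of 68 Igll1 cells and 7 of 33 of the others. One of these 7 held only 2 class II UMIs at a depth of 1513. The median cell held 0.5 class II UMIs in the Igll1 cells and 1 in the others, and 7 of 68 and 7 of 33 held at least 3. Thinned to 1000 UMIs, a class II UMI was left in 4.41% (interval 0.919 to 12.4%) and 30.3% (15.6 to 48.7%).

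Other mature genes rested on few cells as well. Ltb, a lymphotoxin subunit gene, had 5 UMIs against 44, of which 30 lay in the 2 Ms4a1 cells. Klf2, a factor of resting lymphocytes, was broader, with 107.2 CPM in 49 of 68 cells against 318.7 CPM in 21 of 33. Still, 24 of its 75 UMIs in the 33 cells lay in 1 cell, and without that cell Klf2 was 2.23-fold lower in the Igll1 cells in place of 2.97-fold. Igha, the IgA heavy chain gene, had no UMI in the Igll1 cells and 88 in 4 of the others, 46 of them in 1 cell. Mzb1, a gene of antibody secretion, was lower in the Igll1 cells, but 100 of the 126 UMIs of the other cells lay in 1 cell, and without it the ratio was 1.08.

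Proliferation genes leaned towards the Igll1 cells. Of 12 proliferation genes tested, 3 were higher in them and none lower, with a median log2 ratio of 0.64. Pcna, a replication clamp gene, had 480.5 against 161.5 CPM, Mcm6 of the replication helicase 259.7 against 93.5, and the cyclin gene Ccna2 85.0 against 38.2. Without the 4 Ms4a1 cells Ccna2 was 1.92-fold higher, under the threshold. Mki67 had 848.2 against 620.4 CPM. By cell, the 12 genes summed to more than 1000 CPM in 65 of 68 Igll1 cells and in 16 of the 33 others, with medians of 8611 and 917 CPM. Thinned to 1000 UMIs, a UMI of these genes was left in 97.1% (interval 89.8 to 99.6%) and 63.6% (45.1 to 79.6%) of cells.

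The list genes were not all of B cells. Dcn, a fibroblast gene, had 762.4 CPM in the Igll1 cells and 131.7 CPM in the others, and Lum 86.6 against 25.5. A single cell held 291 of the 960 Dcn UMIs of the Igll1 cells. At least 3 mesenchymal UMIs were found in 26 of 68 Igll1 cells and 12 of 33 of the others. With those cells left out, 42 and 21 remained, and the direction turned for both genes, to a ratio of 0.486 for Dcn and 0.343 for Lum. Ebf1 then stood at 5498 and 7085 CPM. Among the 16 B-lineage cells with no mesenchymal UMI, Ebf1 stood at 4862 CPM. The part of mesenchymal RNA in the Ebf1 level was not tested further. Among the 42 and 21 cells, Vpreb1a was 3.36-fold higher in the Igll1 cells, on the floor of 3 UMIs for the others, and Cd74 was 9.45-fold lower.

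The 10 genes with the highest ratio included few of the B lineage. Cxcl14, Stat4, Dlk1, Fabp5, Krt15, Obp3, Nrg1, Vpreb1b, Prkg1 and Sparcl1 led in the Igll1 cells, Stat4 with 134.2 against 12.7 CPM. Cxcl14, a chemokine gene, had 190 UMIs against none, and Krt15, a keratin gene, 114 against 1. On the other side stood Igha, Il1rapl1, Ccl3, Rgs1, Ntng1, Cd74, RT1-Db1, RT1-Ba, RT1-Da and Ms4a6b. Rgs1, a regulator of G protein signalling in activated lymphocytes, had 6.35 CPM in the Igll1 cells and 344.2 CPM in the others.

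**Figure D3:**
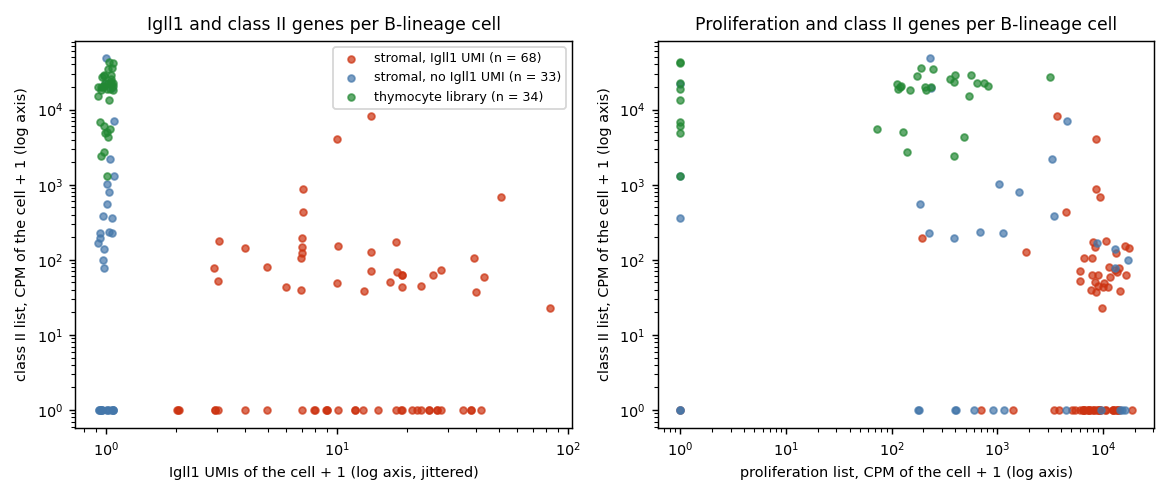
Class II genes summed per B-lineage cell (y axis, CPM + 1, log axis) against Igll1 UMIs (left, UMIs + 1, log axis, jittered) and proliferation genes (right, CPM + 1, log axis). Each point is 1 cell, 68 stromal cells with Igll1, 33 without, and 34 from the thymocyte library. The 34 thymocyte-library cells lie above 1000 CPM of class II genes without Igll1, and 2 of the 68 Igll1 cells reach that level.

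B-lineage cells of the 2 libraries were then compared, 101 stromal against 34 from the thymocyte library. The sort, the digestion and the library differed along with the cells, and these cannot be told apart. Of 8715 genes, 3089 (35.4%) were higher in the stromal cells and 908 (10.4%) lower by the 2-fold rule, with a median log2 ratio of 0.58 over all of them, so list medians are read against that shift. By it, 2 of the 6 members were higher and 1 lower. Igll1 had 720.0 CPM against no UMI and Ebf1 5586 against 563.3 CPM, while Ms4a1 had 6.02 against 315.9 CPM. Cd79a had 1174 against 1334 CPM, Cd79b 343.9 against 512.5 and Pax5 475.8 against 461.7, so the 3 genes shared by both stages were within 2-fold of each other across libraries. These 3 and Ms4a1 chose the cells, so their levels describe the choice. Ebf1 in the 63 stromal cells with fewer than 3 mesenchymal UMIs stood at 5769 CPM.

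Precursor genes were higher in the stromal cells. Of 17 tested, Igll1 included, 15 were higher and none lower, with a median log2 ratio of 2.73. Cd24, a surface protein of immature lymphocytes, had 1730 UMIs in 95 of 101 cells and none in the 34, at least 175-fold higher on a floor of 3 UMIs over the 34 cells. Il7r had 230 UMIs in 65 cells against none, at least 23.2-fold. Myb, a factor of progenitor cells, had 844.4 against 39.8 CPM, Sox4 525.3 against 13.3 and Lef1 602.9 against 92.8. Vpreb3, a further VpreB family gene, had 439.0 against 66.3 CPM. Rag1 had 43.5 against 17.7 CPM, and the 8 UMIs of the thymocyte library lay in 1 cell.

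Mature genes were the reverse. Of 15 tested, 11 were lower in the stromal cells and 1 higher, with a median log2 ratio of -3.81. Cr2, the complement receptor CD21, had 11.4 CPM in the stromal cells and 333.6 in the others, and Cxcr5, the receptor that guides cells to follicles, 2.01 and 83.95. Fcmr, the IgM receptor, had 25.4 against 384.4 CPM. Cd55, which shields cells from complement, was the 1 higher gene, at 93.7 against 2.21 CPM.

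All 8 class II genes were lower in the stromal cells, with a median log2 ratio of -4.55. Cd74 had 337.9 against 6661 CPM and was found in 23 of 101 and 34 of 34 cells. RT1-Da had 135.2 against 3201 CPM and Ciita, the gene of the class II transactivator, 2.68 against 83.95. By cell, the class II sum had a median of 20229 CPM in the 34 cells and was above 1000 CPM in each of them. Thinned to 1000 UMIs, each of the 34 still held a class II UMI.

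The summed levels of antibody genes were lower in the stromal cells too, and rested on few cells. Igha had 58.9 CPM in the stromal cells and 29804 in the others, and Jchain, which joins antibody units, 746.1 and 20959. In the thymocyte library 13352 of 13491 Igha UMIs and 7657 of 9487 Jchain UMIs lay in 3 cells. The median per cell was 229.0 CPM of Igha in the thymocyte library and 0 in the stromal cells, and 567.4 and 299.7 CPM of Jchain. Jchain was above 1000 CPM in 13 of 34 and 20 of 101 cells. Igha was found in 26 of 34 cells there and in 4 of 101 stromal cells, while Jchain was found in 31 and 74. Of the immunoglobulin genes listed, 3 were among the features under the names used, so nothing is said of IgM, IgD or kappa chain.

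Proliferation genes were higher in the stromal cells, 12 of 12 tested, with a median log2 ratio of 4.49. Mki67 had 812.3 against 24.3 CPM and Top2a 785.6 against 8.84. The 12 genes passed 1000 CPM in 1 of the 34 cells. Ptprc, the gene of CD45, had 200.1 CPM in the stromal cells and 704.7 in the thymocyte library, and the stromal library was sorted against its product. The 6 mesenchymal genes had no UMI in the 34 cells and all 6 were higher in the stromal ones. Their part in the other differences was not tested.

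**Figure D4:**
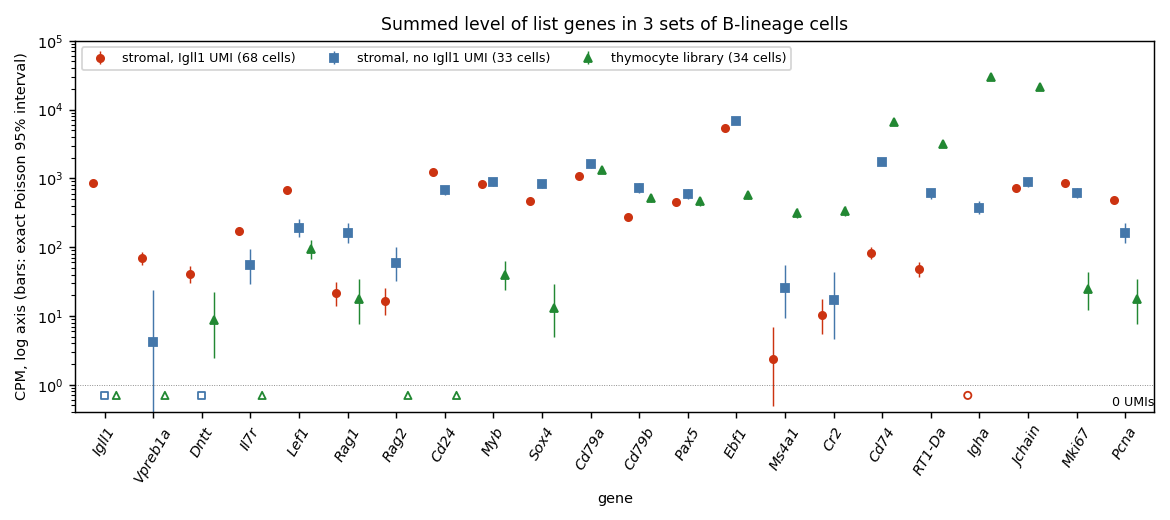
Summed level (y axis, CPM, log axis) of 22 stage genes (x axis) in the 68 stromal B-lineage cells with Igll1, the 33 without, and the 34 of the thymocyte library. Bars are exact Poisson 95% intervals and open symbols on the lowest line mark 0 UMIs. Cd79a and Pax5 lie close together in all 3 sets, Cd24 and Il7r are at 0 UMIs in the thymocyte library, and Cd74, Igha and Ms4a1 are highest there.

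Outside B cells, Cd79a was the member found in T cells. Among whole labels of the thymocyte library, Treg had the highest Cd79a level, 445.0 CPM (interval 374.6 to 524.8), with a UMI in 27 of 37 cells (73.0%). This order holds for the mixed B+myeloid label and not for its B cells: the 34 B-lineage cells stood at 1334 CPM, and the label at 1489 CPM once cells with 3 or more myeloid-list UMIs were left out, when it led for 5 members. Pre-Treg followed at 270.7 CPM (24 of 55 cells) and B+myeloid at 263.6 CPM (243.4 to 285.0), and the last 2 did not differ beyond counting error. Mature CD4-2 had 162.7 CPM, Mature CD4-1 144.7 CPM, Mature cycling T 98.1 CPM and AgoSel1 85.9 CPM. Neighbouring labels in this order overlapped in 16 of 20 pairs.

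Early thymocytes hardly had it. The 7060 cells of the labels DN, DP-P, DP, Pre DP-sig and DP-sig held 15 Cd79a UMIs in 8 cells (0.113%), or 0.304 CPM. Mature CD4 cells had 154.6 CPM and a UMI in 102 of 248 (41.1%), mature CD8 cells 28.6 CPM and 21 of 118 (17.8%), and the 2 Treg labels together 343.0 CPM and 51 of 92 (55.4%). Median depths were 3589.5, 8618.5, 11026 and 7530.5 UMIs per cell in the same order. Thinned to 1000 UMIs per cell the shares were 0.0142%, 11.3%, 2.54% and 18.5%, and kept their order.

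These cells lacked the other B cell genes. Of the 246 cells outside B+myeloid with Cd79a, 246 had a UMI of Cd3d, Cd3e or Cd3g, which encode chains of the T cell receptor complex. Cd79b was found in 2 of the 246, Pax5 in 2, Igha in 2, Jchain in 1 and Ms4a1 and Ebf1 in none. Cd79b, the partner without which Cd79a does not reach the surface of B cells, had no UMI in the mature CD4 or CD8 labels and 2 in Treg. Cd79a was found in 16 of 21 Treg cells with Foxp3, the gene of their defining factor, and in 11 of 16 without it.

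Arhgef1 is the next gene to Cd79a on the same strand in the GRCr8 table, with Rps19 on the other side. Arhgef1 had 265 CPM in DP, 249 in Treg and 351 in Mature CD4-2, so its level did not follow that of Cd79a, which was 0.159 CPM in DP. Rps19 had 983 CPM in DP, 3112 in Treg and 3627 in Mature CD4-2, and so followed Cd79a in part. It also had 2804 CPM in DN, where Cd79a had 0 UMIs, and 4375 in Mature CD8-1, where Cd79a had 31.6 CPM. Whether reads of a neighbouring gene entered the Cd79a count was not tested beyond these levels.

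**Figure D5:**
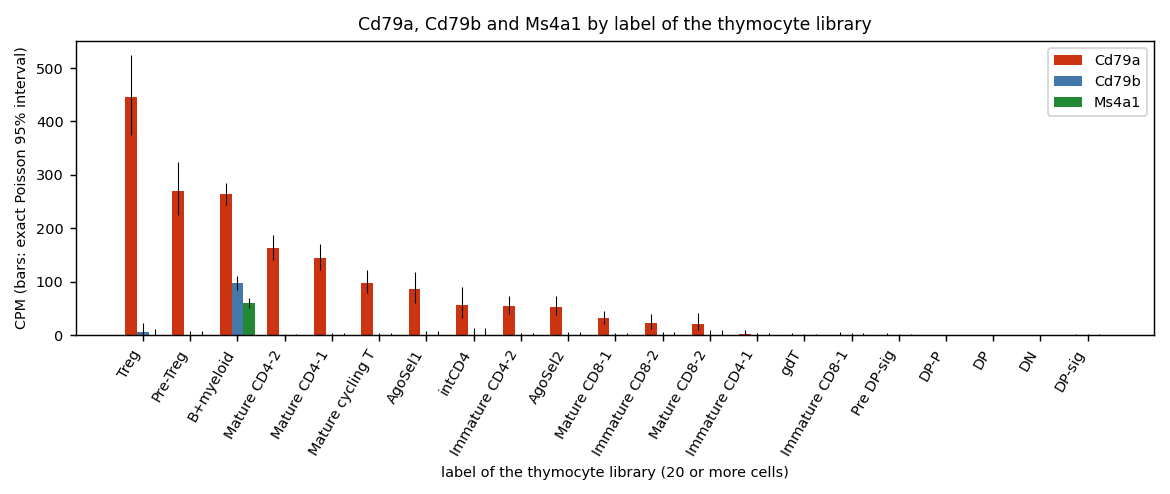
CPM (y axis, from 0) of Cd79a, Cd79b and Ms4a1 in each label of 20 or more cells of the thymocyte library (x axis), ordered by Cd79a, with exact Poisson 95% intervals. Cd79a reaches 445.0 CPM in Treg and 270.7 in Pre-Treg, while Cd79b and Ms4a1 stand out in B+myeloid alone.

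Among stromal cells, Pax5 and Cd79b were also found in a few other labels. Pax5 was found in 15 of 61 mTEC2 cells (24.6%, 26.3 CPM) and 14 of 76 mTEC-prol cells (18.4%, 10.2 CPM), the medullary epithelium that includes the Aire-expressing cells, against 0.506% of all stromal cells outside the B cell label. Of those 15 mTEC2 cells none had Cd79a or Cd79b, and 13 had Aire, the gene that drives expression of tissue antigens, against 27 of 46 without Pax5. In mTEC-prol 10 of the 14 had Aire, against 14 of 62, while 1 of the 14 had Cd79a and 1 had Cd79b. Cd79b was found in 5 of 25 tuft-labelled epithelial cells (9 UMIs, 32.0 CPM) and in 28 of 505 myeloid cells (30 UMIs, 4.97 CPM), against 0.383% of all stromal cells outside the B cell label. The 5 tuft-labelled cells had no Cd79a, Pax5 or Igll1 UMI, and each had the epithelial gene Epcam. The 28 myeloid cells had no Cd79a, Pax5 or Igll1 UMI either, and each had Lyz2, a myeloid gene, as did 447 of the other 477.

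The genes most like each member were sought over labels of 50 or more cells, by Pearson correlation of log2(CPM + 1) among genes with at least 100 UMIs. Over the 18 stromal labels these included Tmprss3 (r = 0.99), Car1 (0.98) and Ahsp (0.95) for Igll1 and Blk (0.95) for Cd79a. They also included Traip (0.96) and Vpreb3 (0.94) for Cd79b, Cd72 (0.97) and Fcrla (0.97) for Pax5, and Rock2 (0.91) for Ebf1. For Ms4a1 they were Sit1 (0.99), Rag2 (0.97) and Slamf6 (0.97), on 19 Ms4a1 UMIs of which 7 lay in the label Thymocyte. For Cd79a over 17 thymocyte-library labels they included Crybg1 (0.96) and Ms4a4a (0.96). The labels share 1 library, and where 1 label carries a gene many genes score alike: 215 genes were above 0.95 for Cd79b in the thymocyte library. These values describe the labels only, and the B cell label enters whole, with the 78 cells outside the B-lineage rule.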

How the data were processed

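The droplet libraries (stroma without CD45, and thymocytes) were used, 1 sample each, grouped by their labels. The spatial tables hold no values per gene and were not used. Deposited values are raw UMI counts per gene and barcode, made by the authors and naming Cell Ranger 8.0.0 in the matrix header, per the file headers, and the build is mRatBN7.2 per the submitters' processing notes, which also name Seurat 5.3.0. The deposited percent of mitochondrial UMIs per cell, given by the authors, reached 4.99% in annotated stromal cells and 54.2% in the thymocyte library, and no cell was removed for it. Cell labels are the authors' projected label, or their initial cluster where none was given.

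UMIs were summed per label or set of cells and given as CPM. Poisson and Clopper-Pearson intervals are exact at 95%, and since cells of 1 library are not replicates they cover counting error only. A level against fewer than 3 UMIs was computed against 3. A label leads where its CPM is at least 3-fold above the next label on at least 20 UMIs, among labels of at least 20 cells. Sets were compared at 2-fold on at least 20 UMIs in both together. Thinning used seed 7. Doublets were neither called nor removed. Sequences were matched by symbol to RefSeq, and 3 of 6 members had a promoter.

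The members, the gene lists and the alternatives were chosen with earlier results of these data known. Named genes are the 6 members, list genes with enough UMIs, and the 10 genes with the largest ratio each way. The intended comparison of Igll1 cells with Ms4a1 cells had 66 cells against 2 and was replaced by the comparisons given, chosen after seeing the data, as was the rule for B-lineage cells. Of 142 list names 12 matched no feature, among them Ighm, Ighd and Igkc, and Vpreb1 was matched as Vpreb1a. Some list genes are not reported here. The rule for a leading label and the 2-fold rule were run on simulated Poisson counts from a pooled profile, with planted changes larger than the thresholds. Such counts lack the uneven cells and mixed RNA of these data, so nothing on the accuracy of the rules here is drawn from them. Tools were NumPy 2.4.6, pandas 2.3.3, SciPy 1.17.1 and matplotlib 3.10.9 under Python 3.11.15.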

Additional observations from a re-analysis of the deposited data

Results flagged for a closer look

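Members were also found in stromal barcodes left without a label by the authors, which are used in no comparison here. In the 2934 such barcodes Igll1 stood at 7.16 CPM, against 0.171 CPM in annotated cells outside the B cell label, with 62 UMIs in 5 barcodes and 44 of them in 1. Cd79a stood at 9.58 CPM against 0.738, with 83 UMIs in 12 barcodes. Cd79b stood at 2.65 CPM against 0.551, in 11 barcodes, and Pax5 at 8.08 CPM against 0.660, in 25 barcodes.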

How the results depend on the processing

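Of 277 recomputed values, 181 moved by less than their interval, or less than 1.5 times for counts of genes, cells or members, and 96 moved further. Some of the 181 had no room to move, since a setting such as the initial cluster left both B labels unchanged. Their number is thus no measure of stability. Whether an order between labels or sets reversed was not scored. Thinning to 1000 UMIs gave Igll1 in 17.3% of the B cell label, Ms4a1 and both genes in 0%, and 50 and 16 B-lineage cells. The B cell label then led for 3 members and B+myeloid for 2, each in place of 4, and Ms4a1 was in 6.17% of B+myeloid. Genes higher and lower were 28 and 42 with Igll1, and 152 and 58 between libraries. Leaving out cells with 3 or more thymocyte-list UMIs gave Igll1 in 10.2%, Ms4a1 and both in 0%, 33 B-lineage cells, and gene counts of 214 and 337, and 1387 and 552. Without Cd3g in that list, a change chosen after seeing the data, Igll1 was in 32.9% and 79 cells were of the B lineage. Leaving out cells with myeloid UMIs gave Igll1 in 50.0% and Ms4a1 in 78.1% of B+myeloid, where Cd79a had 1489 CPM in place of 263.6, above Treg, and 5 members in place of 4 were led. Leaving out cells with mesenchymal UMIs, also chosen after seeing the data, gave Igll1 in 50.0% and 63 B-lineage cells. A 3-fold rule gave 155 and 224, and 1566 and 541 genes. Igll1 cells against the 2 Ms4a1 cells gave 171 genes higher and 5489 lower of 7345, the latter set by the floor of 3 UMIs. The 171 became 55 under the myeloid filter, 67 at 3-fold, 51 without Cd3g and 57 under the mesenchymal filter. Apart from the effects of fewer cells, UMIs or genes, the cause was not tested. No paired analysis was possible because there was a single sample for each group. Ms4a1 rests on 9 UMIs in 179 cells.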
